A study of Mus musculus with 36 samples.

Results

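The genes described are 10 genes of the liver sinusoidal endothelium: Lyve1, Stab1, Stab2, Clec4g, Oit3, Pecam1, Cdh5, Kdr, Eng and Tek. They were chosen by name and are 10 of the 21889 gene symbols in the deposited table, and all 10 were expressed highly enough to be tested. Per unit of length, Eng was the most abundant of them in the mice of Day -2 to Day 5, with a mean of 34.2 FPKM (fragments per kilobase of transcript and 1000000 mapped fragments), and Clec4g in those of Day 25 to Day 60, with 41.1 FPKM.

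Liver sinusoidal endothelial cells line the capillaries of the liver, where blood from the gut and from the hepatic artery reaches hepatocytes through open pores, without a continuous basement membrane. They clear hyaluronan, denatured collagen and other waste molecules from blood through scavenger receptors. Like other endothelial cells they hold together through vascular cadherin, and they respond to VEGF, angiopoietins and BMP9 through receptors at their surface, while growth of the vessels accompanies growth of the liver after birth.

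RNA of whole liver from male C57BL/6 mice (C57BL/6J in the study's methods) was sequenced at 12 ages, with 3 mice per age and 36 mice in all. The ages were Day -2 (late gestation), Day 0 (birth), Days 1, 3, 5, 10, 15 and 20 (suckling) and Days 25, 30, 45 and 60 (after weaning). Ages were also grouped as perinatal (Day -2 to Day 5, 15 mice), pre-weaning (Day 10 to Day 20, 9 mice) and Day 25 to Day 60 (12 mice). Each mouse is a separate animal, the mice carried no treatment, and the livers were not separated into cell types.

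Depth was estimated from the steps between low values, since the values are not counts: 73.7 to 98.4 fragments per library in units of 1000000, with a median of 82.0. Only low values inside a fixed window were used, which limits how far these estimates can range. The numbers of fragments that follow are therefore rough. The thinnest values among the sinusoidal genes still rested on an estimated 160 fragments for Lyve1 (Day 45 replicate 3), 261 for Tek (Day 25 replicate 2) and 433 for Clec4g (Day -2 replicate 1). For the other 7 genes the lowest values rested on 820 fragments or more. Pearson's r across genes was 0.952 to 0.997 between mice of the same age, over 36 pairs.

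Some libraries held less signal from long transcripts than others of their age, and most of the sinusoidal genes were low in the same libraries. Over 1606 genes with transcripts above 5000 bases, the median difference from the other 2 mice of the same age was -0.55 log2 units in Day 30 replicate 1, -0.43 in Day 1 replicate 3 and -0.40 in Day 25 replicate 2. The other 33 libraries ran from -0.31 to 0.44 without a gap, so the 3 libraries are the end of a range. Over 2011 genes with transcripts below 1500 bases the same 3 libraries were higher than the other mice of their ages, by 0.18, 0.09 and 0.24.

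In each of these 3 libraries, 9 of the 10 genes were lower than in both other mice of the age, the exception being Clec4g at Day 30 and Day 25 and Lyve1 at Day 1, with a median ratio of 0.457 at Day 30, 0.651 at Day 1 and 0.526 at Day 25. Clec4g, whose transcript of 1242 bases is the shortest of the 10, had ratios of 1.15 at Day 30, 0.912 at Day 1 and 1.23 at Day 25. Cdh5, with 3986 bases, had ratios of 0.428, 0.548 and 0.476. The longest transcripts of the 10 genes are those of Stab2 (8228 bases), Stab1 (7999 bases) and Kdr (5924 bases). In the same order of ages their ratios were 0.387, 0.564 and 0.619 for Stab2 and 0.471, 0.65 and 0.677 for Stab1. For Kdr they were 0.393, 0.585 and 0.312, and for Lyve1, with 2607 bases, 0.442, 0.804 and 0.475. The ratios of these genes did not follow the order of their lengths. Whether RNA quality caused these low values was not tested, and counts of called genes among the 10 that differ without these libraries are given both ways. Without them, the lowest age mean of Stab1, Stab2, Pecam1 and Cdh5 lay at Day 45 in place of Day 30, that of Tek at Day 45 in place of Day 25, that of Kdr at Day 0 and that of Eng at Day -2, both in place of Day 30. The highest age mean of Pecam1 then lay at Day 1 in place of Day 3, and those of the other 9 genes stayed at the same age. The means of Day 45 still include Day 45 replicate 3, the next lowest library in long transcripts (-0.31). In it 9 of the 10 genes were the lowest of the age and Clec4g was the highest.

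**Figure D1:**
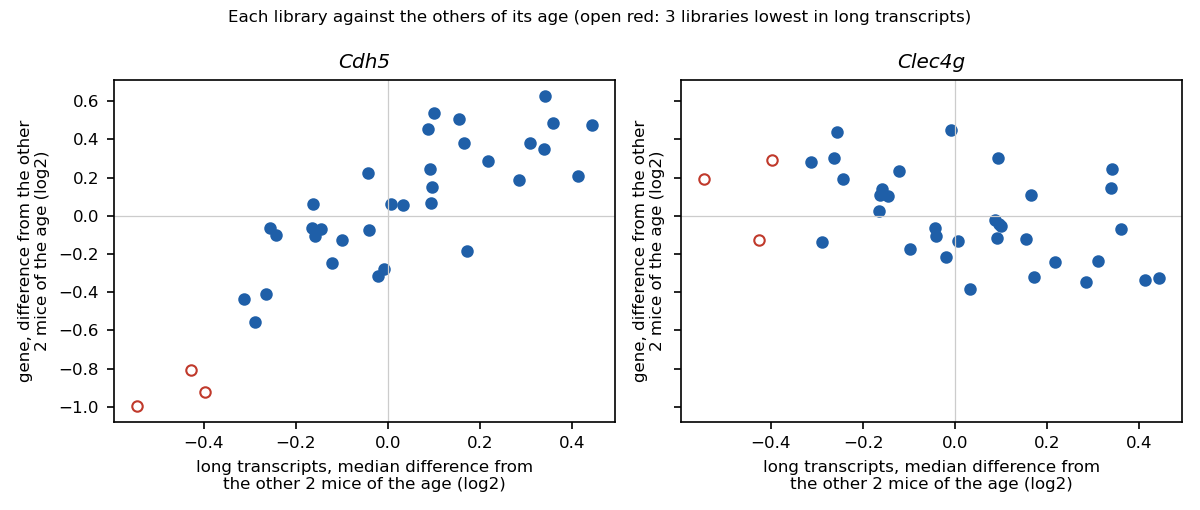
Each point is 1 of 36 libraries, with its median log2 difference from the other 2 mice of its age over 1606 long transcripts on the x axis and the log2 difference of Cdh5 (left) or Clec4g (right) on the y axis. The 3 libraries lowest in long transcripts (open red) are also the lowest 3 for Cdh5, and not for Clec4g.

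Between the perinatal ages and Day 25 to Day 60, 9 of the 10 sinusoidal genes fell and Clec4g rose. Among all 11149 genes tested, 70.2% fell and 15.5% rose in the same comparison (limma on log2(FPKM + 1), adjusted p < 0.05), so a fall was the common outcome. The median change of all genes was itself -0.54 log2 units, or -0.14 after the upper quartiles of all libraries were made equal (upper-quartile scaling). Under that scaling 6 genes fell (46.8% of all genes) and 2 rose (Clec4g and Eng, against 32% of all genes), so how far the falls exceeded the background depended on the scaling. The 6 falls were then -1.735 for Lyve1, -0.59 for Stab2, -0.56 for Cdh5, -0.46 for Oit3, -0.45 for Pecam1 and -0.30 for Stab1. Clec4g was at 1.57 under that scaling. Relative to the median of -0.54, Lyve1, Stab2, Cdh5, Oit3, Pecam1 and Stab1 lay 0.34 to 1.65 below it, whereas Kdr, Eng and Tek lay 0.02 to 0.10 above it. In bulk liver, fewer endothelial cells and less RNA per cell cannot be told apart. The pseudocount of 1 in log2(FPKM + 1) makes the fold change of genes at low levels look smaller than it is.

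Against Days 10 to 20, the same 9 genes were lower at Day 25 to Day 60 and none was higher, while 44.9% of all genes fell and 12.4% rose. This comparison of groups does not place the falls at weaning. The mean of Cdh5 was 16.5 FPKM at Day 10 and 11.1 at Day 20, and that of Stab2 was 15.6 and 9.59. The counts of 9 and 0 were the same under upper-quartile scaling (37.3% of all genes fell and 18.6% rose) and without the 3 libraries (40.5% and 13.7%). The 9 falls lay above these shares, whereas a count of 0 rises among 10 genes is close to them. In the unscaled values the median change of the 10 genes was -0.74 against -0.19 for all genes. For Clec4g the difference was -0.015 (adjusted p = 0.893), and its sign was positive under upper-quartile (0.127) and TPM scaling (0.005). The count of 0 rises from limma was also 0 at an unadjusted p under 0.05.

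**Figure D2:**
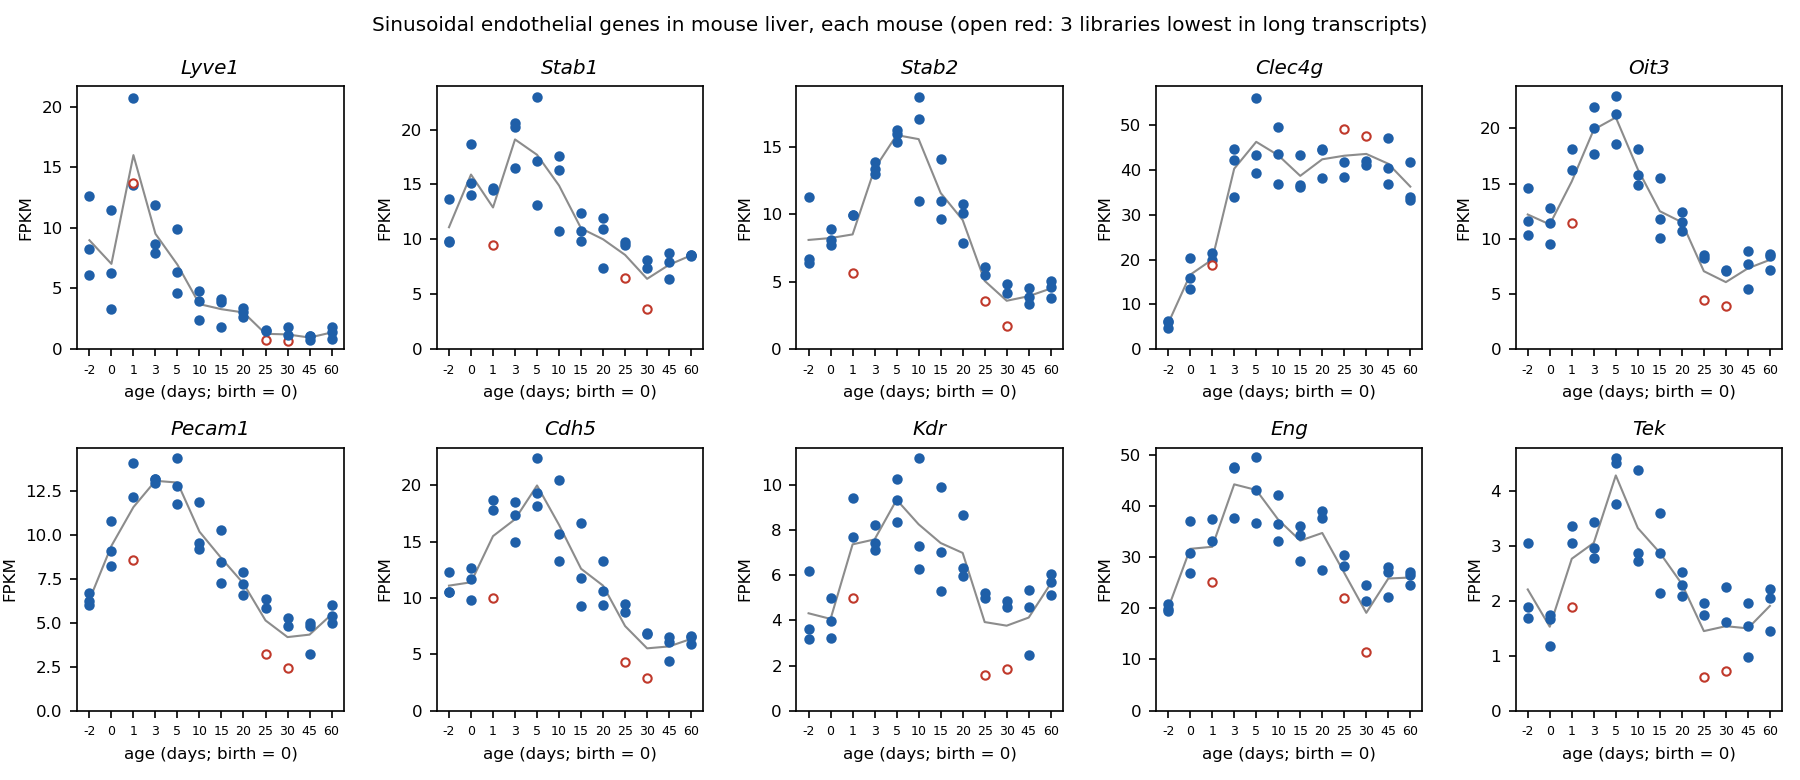
FPKM of each of the 10 genes in each mouse (points) with the mean of 3 mice (line) against age in days; open red points are the 3 libraries lowest in long transcripts. Clec4g climbed from 5.73 at Day -2 to 46.3 at Day 5 and stayed high, Lyve1 was highest at Day 1, and the means of the other 8 genes were highest at Day 3 or Day 5 (Pecam1 at Day 1 without the open red points).

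The scavenger and endocytic receptors went separate ways, with Lyve1 and Clec4g at the ends. Lyve1 encodes a hyaluronan receptor shared by sinusoidal and lymphatic endothelium. It measured 12.6, 6.13 and 8.24 FPKM in the 3 mice of Day -2, 11.5, 6.31 and 3.31 at Day 0, and 20.7, 13.5 and 13.7 at Day 1. At Day 1 every mouse was above every mouse of Day 0, and no later age reached its lowest mouse. From there Lyve1 measured 11.9, 7.94 and 8.65 FPKM at Day 3, 4.8, 2.39 and 3.93 at Day 10, and 0.837, 1.43 and 1.86 at Day 60.

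All 15 perinatal mice were above all 12 mice of Day 25 to Day 60 for Lyve1, with a lowest, median and highest of 3.31, 8.65 and 20.7 FPKM against 0.657, 1.12 and 1.86. The change was -2.19 (SE 0.15, adjusted p = 4.6e-14), or -2.85 with a pseudocount of 0.1. Its means fell in the order Day 1, Day 3, Day -2, Day 0, Day 5, Day 10, Day 15, Day 20, Day 60, Day 25, Day 30 and Day 45, and 9 of the 11 neighbours in that order overlapped. The highest mean, 16 FPKM, was 16.8 times the lowest, 0.951 FPKM, which was the widest range of the 10 genes.

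Clec4g, a C-type lectin also called LSECtin, took the opposite course. It measured 4.73, 6.14 and 6.31 FPKM at Day -2, 13.5, 15.8 and 20.3 at Day 0, and 21.5, 19.8 and 18.8 at Day 1. The step from Day -2 to Day 0 separated all mice, whereas Day 0 and Day 1 overlapped. By Day 3 Clec4g stood at 34, 44.7 and 42.2 FPKM and by Day 5 at 43.3, 56.2 and 39.3, and at Day 60 at 33.9, 41.7 and 33.2. Days 3 to 60 overlapped one another widely, and all 9 mice of Day -2 to Day 1 lay below all 12 mice of Day 25 to Day 60.

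For the whole perinatal group, Clec4g had a lowest, median and highest of 4.73, 20.3 and 56.2 FPKM, against 33.2, 41.4 and 49.2 at Day 25 to Day 60. The change was 0.96 (SE 0.07, adjusted p = 8.74e-13), at the 94.1 percentile of all genes. In order of mean level, Clec4g ran Day 5, Day 30, Day 10, Day 25, Day 20, Day 45, Day 3, Day 15, Day 60, Day 1, Day 0 and Day -2. Of the 11 neighbours 9 overlapped, and the separations lay between Day 60 and Day 1 and between Day 0 and Day -2.

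Stab2, a hyaluronan scavenger receptor of these cells, was highest at Day 5 and Day 10. It measured 11.3, 6.4 and 6.68 FPKM at Day -2, 16.3, 16 and 15.4 at Day 5, and 18.7, 17.1 and 11 at Day 10. Values then were 10.1, 7.9 and 10.8 FPKM at Day 20, 6.07, 3.59 and 5.53 at Day 25, and 4.64, 5.05 and 3.81 at Day 60. All 9 pre-weaning mice were above all 12 mice of Day 25 to Day 60, and so were 14 of the 15 perinatal mice.

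Stab2 changed by -1.32 (SE 0.13, adjusted p = 1.08e-09) from Days 10 to 20 to Day 25 to Day 60, where only 2% of all genes had as low a value. Against the perinatal ages the change was -1.14 (SE 0.11, adjusted p = 2.41e-10). In order of means, Stab2 ran Day 5, Day 10, Day 3, Day 15, Day 20, Day 1, Day 0, Day -2, Day 25, Day 60, Day 45 and Day 30. Neighbours overlapped in 10 of 11 pairs, and the pair that did not was Day -2 and Day 25. The range from highest to lowest mean was 4.43 times, or 4.04 times without the 3 libraries.

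Stab1, the paralogue of Stab2 and a scavenger receptor also found on macrophages, was at 9.49, 14.7 and 23 FPKM (lowest, median, highest) in the perinatal mice and at 3.66, 8.32 and 9.75 at Day 25 to Day 60. The groups overlapped only in that Day 1 replicate 3 (9.49) lay below Day 25 replicate 3 (9.75). Its 3 mice of Day 60 stood at 8.48, 8.59 and 8.54 FPKM, and its highest mean, 19.1 FPKM at Day 3, was 2.98 times its lowest (2.49 times without the 3 libraries). The change was -0.88 (SE 0.11, adjusted p = 2.25e-08), and all 11 neighbours in its order of ages overlapped.

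Oit3, whose product is a secreted or membrane-bound protein with a zona pellucida domain made in liver, ranged from 9.57 over 16.2 to 22.9 FPKM in the perinatal mice and from 3.92 over 7.43 to 8.86 at Day 25 to Day 60. No mouse of either group overlapped the other. The change was -1.04 (adjusted p = 1.29e-10). Its peak mean was 21 FPKM at Day 5 and its lowest 6.07 FPKM at Day 30 (7.14 without Day 30 replicate 1), and 10 of 11 neighbours overlapped.

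The junction and adhesion genes Cdh5 and Pecam1 fell between the same groups of ages as Oit3. From Day -2 to Day 0 the change was 0.50 for Pecam1 and -0.10 for Oit3, which was not called. Cdh5 encodes the vascular cadherin that joins endothelial cells, and it measured 12.3, 10.5 and 10.5 FPKM at Day -2, 22.4, 19.3 and 18.2 at Day 5, 13.3, 9.38 and 10.6 at Day 20, and 6.58, 6.6 and 5.95 at Day 60. Day 5 stood above the mice of Day -2, Day 20 and Day 60 without overlap. All 15 perinatal mice (9.83 to 22.4 FPKM, median 15.0) were above all 12 mice of Day 25 to Day 60 (2.92 to 9.47, median 6.57), and the change was -1.13 (SE 0.12, adjusted p = 1.05e-09).

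The mean of Cdh5 at Day 30 was 5.53 FPKM with replicate 1 (2.92) and 6.83 without it. In order of means, Cdh5 ran Day 5, Day 3, Day 10, Day 1, Day 15, Day 0, Day -2, Day 20, Day 25, Day 60, Day 45 and Day 30, and all 11 neighbours overlapped. Pecam1, an adhesion molecule at the borders of endothelial cells that platelets and leukocytes also carry, was at 6.68, 6.04 and 6.22 FPKM at Day -2, 13.2, 13 and 13.2 at Day 3, and 5.02, 6.01 and 5.42 at Day 60. Its 3 mice of Day 3 lay well above those of both ends of the series, which did not overlap each other either. Its change between the perinatal ages and Day 25 to Day 60 was -1.0 (adjusted p = 1.22e-10), and 10 of 11 neighbours overlapped.

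Among the signalling receptors, the fall of Kdr and Eng had the opposite sign under upper-quartile scaling, and that of Tek no longer passed the test. Kdr encodes the main VEGF receptor of endothelium. It measured 6.2, 3.16 and 3.61 FPKM at Day -2, 4.98, 3.97 and 3.24 at Day 0, 10.3, 8.39 and 9.36 at Day 5, and 5.73, 6.08 and 5.11 at Day 60. Day 5 was above Day 0 and Day 60 without overlap, while Day 60 lay within the range of Day -2. The lowest value, 1.59 FPKM, came from Day 25 replicate 2, and the mean of Day 25 was 3.93 with that mouse and 5.1 without it.

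Kdr changed by -0.48 (adjusted p = 0.00311) between the perinatal ages and Day 25 to Day 60, which was 0.06 above the median of all genes, while the value was 0.04 (adjusted p = 0.794) under upper-quartile scaling. Its order of means was Day 5, Day 10, Day 3, Day 15, Day 1, Day 20, Day 60, Day -2, Day 45, Day 0, Day 25 and Day 30, with overlap between all 11 neighbours.

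Eng encodes endoglin, a co-receptor for BMP9 and TGF-beta. It measured 20.8, 19.8 and 19.4 FPKM at Day -2, 30.8, 26.9 and 37.1 at Day 0, 37.7, 47.5 and 47.4 at Day 3, and 24.6, 26.4 and 27 at Day 60. The mice of Day -2 lay below those of each of these other ages, and Day 3 lay above Day 60. The change from the perinatal ages to Day 25 to Day 60 was -0.44 (adjusted p = 0.000102), and 0.18 with the opposite sign (adjusted p = 0.0263) under upper-quartile scaling. Its lowest mean, 19.1 FPKM at Day 30, was 23 without replicate 1, and 10 of 11 neighbours overlapped.

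Tek encodes TIE2, the angiopoietin receptor, and had the lowest mean FPKM of the 10 genes at every age up to Day 20. It measured 3.06, 1.69 and 1.89 FPKM at Day -2, 4.6, 3.76 and 4.52 at Day 5, 1.97, 0.609 and 1.75 at Day 25, and 2.22, 2.06 and 1.45 at Day 60. Day 5 stood above the other 3 ages, which overlapped one another. Its change of -0.52 (adjusted p = 7.57e-05) became -0.10 (adjusted p = 0.365) under upper-quartile scaling, and all 11 neighbours in its order of ages overlapped.

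To ask at which ages the genes differed from the adult level, each age was compared with Day 60, so that all these comparisons share the same 3 control mice. At Day -2, 5 of the 10 genes differed against 75.1% of all genes: Lyve1, Stab2, Oit3 and Cdh5 were higher and Clec4g was lower. Without Day -2 replicate 1 the count was 2, and under upper-quartile scaling 1 gene was higher (40.7% of all genes) and 3 were lower (29%). At Day 0, 6 differed against 63.9% of all genes, and at Day 1, 6 against 65.0%, with Clec4g again the gene that was lower (under upper-quartile scaling 2 genes were lower at Day 0, against 29.8% of all genes). At Day 3, 7 differed against 66.0%, and at Day 5, 8 against 65.4%, all of them higher than at Day 60 (under upper-quartile scaling 1 gene was lower at Day 3, against 23.3%, and the count at Day 5 was 5 against 54.3%). These counts lay below the background shares or less than 2 genes above them. Without the 3 libraries low in long transcripts, the counts for these 5 ages in order were 6 (77.2% of all genes), 7 (66.7%), 9 (67.6%), 8 (69%) and 9 (68.3%).

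At Day 10, 8 of the 10 genes were higher than at Day 60, against 46.0% of all genes that differed in either direction (6 against 45.7% under upper-quartile scaling). These were the same 8 as at Day 5: all but Clec4g and Kdr, with Eng (adjusted p = 0.0411) and Tek (adjusted p = 0.0456) closest to the threshold. Without Day 10 replicate 1 the count was 4, and without Day 10 replicate 2 or Day 60 replicate 1 it was 5. At Day 15, 3 genes differed against 27.4% (Stab2, Pecam1 and Cdh5), close to the background, and 5 without the 3 libraries low in long transcripts (32% of all genes) and 5 under upper-quartile scaling (31.8%). At Day 20, 1 gene differed against 15.9% (Stab2, 0.94 above Day 60, adjusted p = 0.00591), 3 without those libraries (19.5% of all genes) and 5 under upper-quartile scaling (21.2%).

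From Day 25 on, limma called 0 of the 10 genes: 0 at Day 25 against 7.42% of all genes, 0 at Day 30 against 3.56% and 0 at Day 45 against 0.233%. At an unadjusted p under 0.05 the counts were 0, 1 and 0, against 19.4%, 18.3% and 7.22% of all genes. Over all 11 comparisons together, 9 of the 10 genes differed from Day 60 at 1 or more ages against 90.7% of all genes, so this count is that of the background. Kdr was the exception, with a smallest adjusted p of 0.1. Without the 3 libraries the count was 10. The share of all genes was not computed for that fit, so this count cannot be set against a background.

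Birth was followed by comparing Day 0 with Day -2. Of the 10 genes 3 changed, all upward, while 13.1% of all genes rose and 41.4% fell (54.6% in either direction). Without the 3 libraries low in long transcripts 4 genes rose, against 14.2% of all genes (58.7% in either direction). Clec4g rose by 1.38 (SE 0.16, adjusted p = 4.16e-08), Eng by 0.62 (adjusted p = 0.00999) and Pecam1 by 0.50 (adjusted p = 0.0405). Pecam1 measured 10.8, 9.1 and 8.23 FPKM at Day 0 against 6.68, 6.04 and 6.22 before birth, without overlap, as for Clec4g and Eng. Stab1, at 0.49 (adjusted p = 0.0753), passed the threshold under upper-quartile scaling (0.73, adjusted p = 0.00301), without the 3 libraries (adjusted p = 0.0275) and with the trends of transcript length and GC content removed (adjusted p = 0.00992). The call of Pecam1 was lost with no filter (0.499), with a pseudocount of 0.1 (0.557), under TPM scaling (0.515), and without any 1 of 5 of these 6 mice (0.402 to 0.535). That of Eng was lost without Day 0 replicate 3 (0.503).

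From Day 0 to Day 1, when suckling starts, 1 gene changed against 31.6% of all genes. This was Lyve1, which rose by 1.19 (SE 0.32, adjusted p = 0.0055), and whose call was lost without Day 0 replicate 3 (0.81). Without the 3 libraries low in long transcripts, which include Day 1 replicate 3, 6 genes rose: Lyve1, Oit3, Pecam1, Cdh5, Kdr and Tek. Of all genes 31.2% then rose and 37.7% changed, against 23.7% and 31.6% with all libraries. In the other 2 mice of Day 1, Cdh5 measured 17.8 and 18.7 FPKM and Kdr 9.43 and 7.69, against 10.0 and 5.01 in Day 1 replicate 3. All 3 mice of Day 0 were below those higher values, with 11.7, 12.7 and 9.83 FPKM for Cdh5 and 4.98, 3.97 and 3.24 for Kdr.

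Across weaning, from Day 20 to Day 25, 2 genes fell, while 3.26% of all genes fell and 7.19% changed in either direction. The genes were Stab2, by 0.82 (SE 0.24, adjusted p = 0.0334), and Oit3, by 0.68 (SE 0.21, adjusted p = 0.0492). Both calls were lost with no filter and under TPM scaling, where the changes were about as large (-0.817 and -0.87 for Stab2, -0.678 and -0.708 for Oit3). Leaving out single mice ended the call of Stab2 in 4 of 36 cases and that of Oit3 in 22 of 36. Among these is Day 25 replicate 2, which measured 3.59 FPKM for Stab2 and 4.42 for Oit3, while the other mice of that day measured 6.07 and 5.53 for Stab2 and 8.26 and 8.51 for Oit3. Even so, these other mice lay below all 3 mice of Day 20, which measured 10.1, 7.9 and 10.8 FPKM for Stab2 and 11.5, 10.7 and 12.4 for Oit3. Without the 3 libraries no gene passed the threshold (Stab2 -0.63, adjusted p = 0.0564), whereas removing the trend of each library with transcript length and GC content gave 4 genes (Lyve1, Stab2, Oit3 and Kdr), with 5.33% of all genes lower and 10.6% changed.

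Each gene was also set against Cdh5 by its ratio of FPKM within each mouse. For Oit3 the age means lay between 0.955 and 1.28 times Cdh5, for Pecam1 between 0.57 and 0.862 and for Stab2 between 0.552 and 0.944. Ages still differed within these ranges: Pecam1 had ratios of 0.543, 0.575 and 0.592 at Day -2 and of 0.763, 0.911 and 0.911 at Day 60, and Stab2 of 0.561, 0.532 and 0.562 at Day 1 and of 0.914, 1.09 and 0.83 at Day 10. In both cases the mice of the first age lay below all mice of the second. Between the perinatal ages and Day 25 to Day 60 the mean log2 ratio to Cdh5 moved by 0.12 for Oit3, 0.11 for Pecam1, -0.06 for Stab2 and 0.30 for Stab1, and for each of these genes the groups overlapped. These ratios were not tested.

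The ratio of Clec4g to Cdh5 was 0.385, 0.584 and 0.6 in the mice of Day -2, 1.94, 2.92 and 2.16 at Day 5, and 5.16, 6.32 and 5.58 at Day 60. These 3 ages did not overlap. At Day 25 the mice had ratios of 4.4, 11.4 and 4.42 and at Day 30 of 16.3, 6.2 and 5.98, and the high values are the libraries low in long transcripts. The means without these libraries were 4.41 at Day 25 (6.73 with them) and 6.09 at Day 30 (9.5 with them). All 15 perinatal mice (0.385 to 2.99) lay below all 12 mice of Day 25 to Day 60 (4.4 to 16.3), and the mean log2 ratio moved by 2.28, or by 2.11 without the 3 libraries.

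Lyve1 went the other way, with ratios to Cdh5 of 1.02, 0.584 and 0.783 at Day -2 and 0.127, 0.216 and 0.312 at Day 60. Its shift was -1.69 (-1.62 without the 3 libraries), and 14 of the 15 perinatal mice (13 of 14 without the libraries) lay above all later ones. For the signalling receptors the shifts were positive: 0.81 for Eng (0.79 without the 3 libraries), 0.67 for Kdr (0.78) and 0.47 for Tek (0.55). With all libraries, 13 of the 15 perinatal mice lay below all later ones for Eng, 4 for Kdr and 2 for Tek. Without the 3 libraries these were 12 of 14 for Eng, 13 for Kdr and 8 for Tek, so the overlap of Kdr rested largely on Day 25 replicate 2 (0.367). Set against Pecam1 in place of Cdh5, the shifts were 2.17 for Clec4g, -1.81 for Lyve1, 0.70 for Eng, 0.56 for Kdr and 0.36 for Tek.

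**Figure D3:**
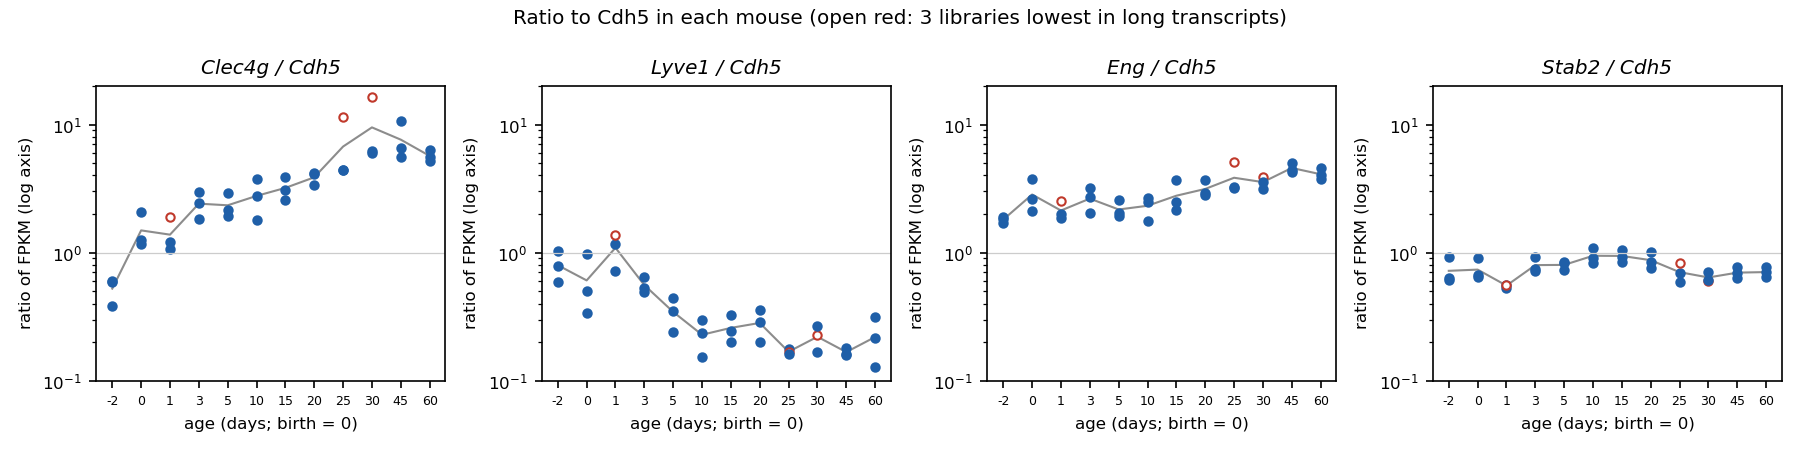
Ratio of FPKM to Cdh5 in each mouse (points) and mean of 3 mice (line) against age in days, on a log axis, for Clec4g, Lyve1, Eng and Stab2; open red points are the 3 libraries lowest in long transcripts. The mean for Clec4g went from 0.523 at Day -2 to 5.69 at Day 60 and that for Lyve1 from 0.797 to 0.219, while the means for Stab2 lay between 0.552 and 0.944.

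The genes other than Clec4g mostly varied together from mouse to mouse, with Lyve1 and Eng as exceptions in some pairs. Over 36 mice, Pearson's r of log2(FPKM + 1) had a median of 0.82 over their 36 pairs (0.37 to 0.97), and a median of 0.74 (0.03 to 0.95) after the mean of each age was removed. Without the 3 libraries low in long transcripts, the median within ages was 0.59 (-0.35 to 0.90), so part of the shared variation rests on them. The lowest of these were Lyve1 with Eng (-0.35), Lyve1 with Stab1 (-0.23) and Eng with Tek (-0.09). Kdr with Tek (0.90) and Stab1 with Eng (0.85) were among the closest pairs, and the pairs named were chosen after their values were seen. For the 9 pairs that include Clec4g the median was -0.05, and -0.31 within ages. These values are descriptions, since all pairs share the same libraries.

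Other genes of the sinusoidal endothelium were mixed as well. From the perinatal ages to Day 25 to Day 60, 14 of 18 tested genes on that list fell, 2 rose and 2 were not called, with a median of -0.61 against -0.54 for all genes. Beside this and the lists that follow stands the share of all genes that fell in this comparison, 70.2%, or 46.8% under upper-quartile scaling, where 7 of these 18 genes fell and 4 rose. The 2 that rose are Fcgr2b, an inhibitory Fc receptor that takes up immune complexes, by 0.69 (adjusted p = 6.1e-09), and Dnase1l3, a secreted DNase, by 0.64 (adjusted p = 8.67e-07). Both were lowest at Day -2, as Clec4g was: Fcgr2b went from 1.74 FPKM at Day -2 to 11.8 at Day 5 and 11 at Day 60, and Dnase1l3 from 2.86 to 22.9 and 16.8. The largest falls were those of Clec1b, a C-type lectin also found on platelets (-1.64), the water channel Aqp1, which red cells also carry (-1.53), and the tetraspanin Tspan7 (-1.27). Under upper-quartile scaling the changes were 1.235 for Fcgr2b, 1.21 for Dnase1l3, -1.12 for Clec1b, -0.90 for Aqp1 and -0.66 for Tspan7.

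Angiocrine factors are signals that endothelial cells release towards hepatocytes. Of 8 such genes 5 were expressed highly enough to be tested, of which 3 fell, 1 rose and 1 was not called, with a median of -0.23 (0 fell and 3 rose under upper-quartile scaling). Bmp6, which sets hepcidin in hepatocytes, rose by 0.21 at low levels (adjusted p = 0.00268, or 0.00293 with no filter). Its age means were 0.336 FPKM at Day -2, 0.961 at Day 1, 0.351 at Day 5, 0.6 to 0.858 at Days 25 to 45 and 1.5 at Day 60, the age through which it passed the filter. The means of Days 25 to 45 lay within those of the perinatal ages, so the rise rests mainly on Day 60. Dll4, a Notch ligand, fell by 0.39, Rspo3, which enhances WNT signals, by 0.25, and Wnt2 by 0.23, all less than the median fall of all genes. Rspo3 passed the filter only through Day 1 (1.04 FPKM) and Day 5 (1.13 FPKM), and its adjusted p was 0.00481, or 0.0065 with no filter. Under upper-quartile scaling Dll4 was at -0.05 (adjusted p = 0.365), Rspo3 at -0.02 (adjusted p = 0.8), Wnt2 at 0.19 (adjusted p = 0.0417) and Bmp6 at 0.46 (adjusted p = 2.36e-08). Wnt2 had age means of 0.934 FPKM at Day -2, 5.53 at Day 5 and 1.26 at Day 60, so its peak age was that of Stab2, Clec4g, Oit3, Cdh5, Kdr and Tek.

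The list of VEGF, angiopoietin and BMP9 signalling holds ligands and partners of Kdr, Tek and Eng, related ligands and receptors, and response genes. Of its 18 tested genes 14 fell, 3 rose and 1 was not called, with a median of -0.71 (9 fell and 3 rose under upper-quartile scaling). Vegfa, the ligand of Kdr, had a difference of -0.18 (adjusted p = 0.372), and of 0.32 under upper-quartile scaling, with age means of 3.23 FPKM at Day -2 and 4.9 at Day 60. Its highest age mean, 6.23 FPKM at Day 10, came from values of 11.9, 3.05 and 3.76, so it rests on 1 mouse. Flt1, a decoy receptor for VEGF, fell by 0.41 (-0.08, adjusted p = 0.436, under upper-quartile scaling), whereas Nrp1, a co-receptor of Kdr, rose by 0.89 (adjusted p = 2.8e-08), or by 1.33 under that scaling. The ligands of Tek, Angpt1 and Angpt2, were below the limit of testing at all ages, with highest age means of 0.178 and 0.52 FPKM at Day 1.

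Tie1, the partner of Tek, fell by 1.23 (adjusted p = 7.82e-15), more than Tek itself, and Ptprb, a phosphatase that acts on TIE2, rose by 0.38. Gdf2 encodes BMP9, the ligand that endoglin binds, and fell by 0.77 (adjusted p = 2.19e-09), with a peak of 12.8 FPKM at Day 5 and 4.27 at Day 60. Its receptor Acvrl1 (ALK1) fell by 0.97. Of the BMP response genes, Id1 fell by 1.60 and Id3 rose by 0.46, and the largest fall on the list was that of Tgfb1 (-2.91), which blood cells also express. Under upper-quartile scaling the changes were -0.69 for Tie1, 0.75 for Ptprb, -0.23 for Gdf2, -0.565 for Acvrl1, -1.07 for Id1, 1.07 for Id3 and -2.31 for Tgfb1.

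Genes of endothelium in general and of other vessel types gave the wider frame. Of 24 tested general endothelial genes 21 fell, 2 rose and 1 was not called (16 fell and 3 rose under upper-quartile scaling), with a median of -0.73, led by Tal1 (-4.08) and Lmo2 (-3.64), which blood precursors also express, and Rasip1 (-1.36), a regulator of vessel lumens. The 2 that rose were S1pr1, the sphingosine 1-phosphate receptor (0.61), and Ece1, the endothelin-converting enzyme (0.58). Of 11 tested genes of continuous and venous endothelium 8 fell and 3 rose (6 and 3 under upper-quartile scaling), with a median of -0.62: Vwf, which megakaryocytes also make (-2.15), Cd34, also on blood precursors (-1.91), and Ephb4 (-1.07) had the largest falls. The rises were those of Lrg1 (2.93), which hepatocytes also make, Pllp (1.34) and Ly6a (1.00). Under upper-quartile scaling S1pr1 was at 1.18, Ece1 at 1.15, Ly6a at 1.55, Rasip1 at -0.87 and Ephb4 at -0.50.

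Of the lymphatic list, which Lyve1 would share, 2 of 4 genes were tested: Flt4 fell by 0.66 and Prox1, which hepatocytes also express, was not called (neither was called under upper-quartile scaling). The other 2, Pdpn and Ccl21a, stayed below 1 FPKM at every age, with highest means of 0.724 FPKM at Day 1 and 0.23 FPKM at Day 15.

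Markers of other cells moved over the same ages. Of the macrophage markers 9 of 11 tested fell and 2 rose (7 and 2 under upper-quartile scaling), with a median of -1.19, and their summed level was 212 to 515 FPKM (median 395) in the perinatal mice and 128 to 262 (median 183) at Day 25 to Day 60, with C1qb as the most abundant gene. The sum over this list was 324, 255 and 212 FPKM in the mice of Day 0 and 484, 458 and 515 at Day 1, the step at which Lyve1 rose (limma). All 8 megakaryocyte and platelet markers fell, with a median of -3.25, from a sum of 135 to 341 FPKM to one of 1.75 to 3.89, with Ppbp as the most abundant gene perinatally and Pf4 at Day 25 to Day 60. Platelets carry Pecam1 and macrophages carry Lyve1 and Stab1, and their part in the levels of these genes was not tested.

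All 9 tested erythroid markers fell, with a median of -4.77, from a sum of 628 to 4310 FPKM to one of 32.8 to 87.9, with Slc4a1 as the most abundant gene perinatally and Alas2 at Day 25 to Day 60. All 8 proliferation genes fell, with a median of -2.78, from 35.8 to 187 FPKM to 0.517 to 10.1, led by Aurkb and later by Cdk1. Of the stellate cell and fibroblast markers 8 of 10 fell, 1 rose and 1 was not called (7 fell and 3 rose under upper-quartile scaling), with a median of -0.95, from 74.2 to 211 FPKM to 32.6 to 64.4, led by Col1a1 and later by Colec11 (Col3a1 over all mice). Of the hepatocyte markers 8 of 10 rose, 1 fell and 1 was not called (9 rose and 0 fell under upper-quartile scaling), with a median of 1.55, from 7840 to 48400 FPKM to 47700 to 64700, led by Alb. The part of these cells in the fall of the 9 sinusoidal genes was not tested.

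Genes of skeletal muscle were high in a few mice, and those of exocrine pancreas in many. The skeletal muscle list fell in 3 of 8 genes with 5 not called (1 fell under upper-quartile scaling), with a median of -0.62, and its sum was 1290 FPKM in Day 0 replicate 1, led by Acta1, against 4.68 and 4.32 in the other mice of that day. The pancreas list fell in 2 of 8 genes with 6 not called (1 fell under upper-quartile scaling), with a median of -2.36, and its sum reached 23700 FPKM in Day 60 replicate 1, led by Ctrb1, against 4.84 and 5.51. It was also 7.02 to 5330 FPKM in the perinatal mice (highest in Day 0 replicate 3), with a median of 734, 5310 in Day 15 replicate 3, 8270 in Day 20 replicate 2 and 5180 in Day 45 replicate 1. In Day 0 replicate 1, 5 of the 10 sinusoidal genes were the highest of the age (Lyve1, Oit3, Pecam1, Kdr and Tek) and 3 the lowest (Stab1, Stab2 and Clec4g). In Day 60 replicate 1, Tek was the highest and 5 were the lowest (Lyve1, Stab1, Oit3, Pecam1 and Eng). Of the other libraries high in pancreas genes, Day 0 replicate 3 had 4 genes highest and 6 lowest, and Day 15 replicate 3 had 0 and 8. Day 20 replicate 2 had 1 and 8, and Day 45 replicate 1 had 7 and 1. Day 10 replicate 1 had 7 and 1 as well. It held 1400 FPKM of pancreas genes, against 7.51 and 241 in the other mice of its age. Its sum of muscle genes was 86 FPKM, against 8.2 and 1.26. Without this mouse, 4 of the 10 genes differed between Day 10 and Day 60, in place of 8. The part of the other tissues in these levels was not tested. No gene on any of these lists was at 0 in all mice, and Sele and Angpt1 had means below 0.1 FPKM.

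The genes whose pattern was most like those of 3 of the 10 genes were looked up over all 36 mice by Pearson's r of log2(FPKM + 1). For Cdh5 they were Lamc1 (0.978), a laminin chain, Dab2 (0.969), an endocytic adaptor, Nid1 (0.965), a basement membrane protein, Fgd5 (0.964) and Elk3 (0.964). For Stab2 they were Nid1 (0.951), Hspg2 (0.950), which encodes perlecan, Mfsd7c (0.947), Ski (0.947) and Itga9 (0.943). Most of these have long transcripts, from 3435 bases for Mfsd7c to 14187 for Hspg2. Within ages r was 0.878 to 0.938 for the genes like Cdh5, and 0.625 (Mfsd7c) to 0.919 (Ski) for those like Stab2. Under upper-quartile scaling Nid1 was no longer among the first 5 for either gene.

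For Clec4g they were Mbl2 (0.964) and Ctsh (0.962), then Cldn3 (0.957), Hsd3b7 (0.956) and Agmat (0.955). Mbl2 encodes a mannose-binding lectin that hepatocytes secrete, Ctsh a lysosomal protease, Hsd3b7 an enzyme of bile acid synthesis and Agmat an agmatinase. Mbl2 went from 2.53 FPKM at Day -2 to 47.5 at Day 0, 163 at Day 5 and 196 at Day 60, so it shared the steps of Clec4g at birth and between Days 1 and 5. These 5 genes have transcripts of 1101 to 1828 bases, and within ages their r with Clec4g was 0.281 to 0.631, so the likeness lies mainly in the age means.

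The bases before the starts of the genes were compared between those that fell together and Clec4g. Of the 10 genes 6 matched the table of RefSeq promoters (build GRCm38.p6): Eng, Tek, Kdr, Clec4g, Stab2 and Stab1. Each window is the 250 bases before the start, and it was searched on both strands for the ETS core AGGAAG, the GATA site AGATAA and the MAF half-site TGCTGA, since factors of these families act in endothelium. The ETS core was in 4 of the 6 windows, against 29.5% of all 32851 windows, the GATA site in 0 of the 6 against 9.99%, and the MAF half-site in 2 (Tek and Stab1) against 16.1%. A match is a description and does not show that a factor binds.

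The windows of Clec4g and Stab2 are shown because Clec4g rose and Stab2 fell between the perinatal ages and Day 25 to Day 60, and that of Stab1 because it holds both an ETS core and a MAF half-site. Capitals mark AGGAAG or TGCTGA on either strand; in Clec4g, 2 of the 3 ETS matches overlap. The windows are chr8:3720652-3720901 for Clec4g, chr10:87007943-87008192 for Stab2 and chr14:31168642-31168891 for Stab1, all on the minus strand and written 5′ to 3′ as the gene is read.
Clec4g: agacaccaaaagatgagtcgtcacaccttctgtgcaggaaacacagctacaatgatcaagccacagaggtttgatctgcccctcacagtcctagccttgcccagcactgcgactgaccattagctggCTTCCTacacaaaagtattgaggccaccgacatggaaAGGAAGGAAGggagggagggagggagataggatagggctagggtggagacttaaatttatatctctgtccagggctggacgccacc
Stab2: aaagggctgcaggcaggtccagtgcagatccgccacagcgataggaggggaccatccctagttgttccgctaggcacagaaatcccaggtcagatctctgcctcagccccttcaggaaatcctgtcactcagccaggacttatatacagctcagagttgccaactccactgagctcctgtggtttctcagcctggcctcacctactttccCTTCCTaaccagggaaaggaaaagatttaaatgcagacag
Stab1: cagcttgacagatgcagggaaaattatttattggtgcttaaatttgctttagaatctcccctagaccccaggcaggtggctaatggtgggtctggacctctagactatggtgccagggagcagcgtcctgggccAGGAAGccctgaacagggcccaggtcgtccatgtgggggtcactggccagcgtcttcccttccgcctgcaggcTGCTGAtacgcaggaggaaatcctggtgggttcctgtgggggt
Of the signalling receptors, Eng had 2 ETS cores in its window, Tek a MAF half-site and Kdr none of the 3 motifs.

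In the mm9 build (NCBI37), the 10 genes lie on 8 chromosomes and no pair of them overlaps. Clec4g lies at chr8:3707064-3720651, Stab2 at chr10:86303943-86470770, Lyve1 at chr7:117994121-118006467, all on the minus strand, and Cdh5 at chr8:106625525-106668402 on the plus strand. Stab1 and Stab2 share a structure of 69 exons in their longest transcripts, with spans of 29629 and 166828 bases. The libraries were not stranded, so reads from overlapping genes on the opposite strand cannot be told apart by strand: Stab1 overlaps Nt5dc2, Stab2 overlaps 6 noncoding genes or pseudogenes, Clec4g overlaps Gm16553, Pecam1 overlaps a U3 snoRNA and Eng overlaps Fpgs. On their own strands, Clec4g overlaps the pseudogene Gm9814 and Eng overlaps Ak1 and 2 small RNA genes. Lyve1, Oit3, Cdh5, Kdr and Tek overlap no other annotated gene.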

How the data were processed

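The authors deposited FPKM values, 1 per gene symbol and mouse, on a linear scale. According to the submitters' processing notes, reads were mapped to NCBI37 (mm9) with TopHat 1.2.0 and abundance was estimated with Cufflinks 1.0.3 against Ensembl release 65. The TruSeq v2 kit does not keep the strand, so overlapping antisense genes cannot be told apart.

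Values were transformed to log2(FPKM + 1). Genes whose mean reached 1 FPKM at any age (11149) were fitted with limma 3.58.1 in R 4.3.3. The model had a mean for each age, used all 36 mice, and had a mean-variance trend and no covariates. Contrasts of age means were adjusted by Benjamini-Hochberg over all genes tested, and for a change at any age over genes and 11 comparisons together, with a threshold of 0.05. The fit was tested on simulated data, and the outcome is not reported here. Python 3.11.15 (numpy 2.4.6, pandas 2.3.3, matplotlib 3.10.9) was used for descriptions and figures. For depth, 1162 low genes were eligible, and each library used only those with a value inside the fixed window. These were 25 values in Day 60 replicate 3, the fewest, and 174 in Day 1 replicate 2, the most. Summed FPKM was 353712 to 450597 per mouse.

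The genes named are all 10 sinusoidal genes; in each endothelial, angiocrine and signalling list the 3 largest rises and the 3 largest falls between Day -2 to Day 5 and Day 25 to Day 60 with an adjusted p below 0.05; Vegfa, Angpt1, Angpt2, Gdf2, Flt1, Tie1 and Acvrl1 whatever their p; in each list of other cells the most abundant gene (over all mice, perinatally or at Day 25 to Day 60); and the 5 genes most like Stab2, Clec4g and Cdh5. Prox1, Pdpn and Ccl21a were named after their values were seen. The sinusoidal genes and the lists (other sinusoidal genes, angiocrine factors, VEGF, angiopoietin and BMP9 signalling, general, continuous and venous, and lymphatic endothelium, macrophages, megakaryocytes, erythroid cells, stellate cells, hepatocytes, proliferation, skeletal muscle, exocrine pancreas) were chosen with earlier results of these data known. Flt4 is on 2 lists.

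Alternatives were a pseudocount of 0.1, no filter, a filter of 5 FPKM, upper-quartile scaling, TPM scaling (each library summing to 1000000), a fit without the mean-variance trend, a block for the replicate number, and each mouse left out in turn. Removal of the 3 libraries lowest in long transcripts, and removal of each library's trend with transcript length and GC content, were added after seeing the data. Transcript lengths are those of the longest annotated transcript in mm9.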

Additional observations from a re-analysis of the deposited data

How the results depend on the processing

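Of 19 counts of genes and 50 log2 changes, those with no mean-variance trend all kept their direction and their side of the threshold, and counts stayed within 1.5 times. With the pseudocount of 0.1, the count at Day 20 was 2 (20% of all genes), and with no filter the count from Day 20 to Day 25 was 0 (4.17%). A filter of 5 FPKM gave 5 at Day 15 (32.7% of all genes), where Tek was no longer tested. TPM scaling gave 2 from Day 0 to Day 1 (31.5% of all genes) and 0 from Day 20 to Day 25 (7.82%), and Clec4g was at 0.005 against Days 10 to 20. Of the 50 changes, 1 lost its call with the pseudocount of 0.1, 3 with no filter, 3 under TPM scaling (where 1 gained it) and 0 of 45 with the filter of 5 FPKM. The cause was not tested.

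Upper-quartile scaling kept 15 of 19 counts within 1.5 times and 41 of 50 changes, as did the removal of 3 libraries below. The counts against Day 60 became 5 at Day 5, 5 at Day 15 and 5 at Day 20, and 2 genes (Clec4g and Eng) were lower perinatally than at Day 25 to Day 60. Signs reversed for Kdr (0.039) and Eng (0.178) against the perinatal ages, for Clec4g (0.127) against Days 10 to 20, for Oit3 (0.149) and Kdr (0.168) from Day -2 to Day 0, and for Stab2 (-0.13) and Eng (-0.136) from Day 0 to Day 1, while Stab1 gained a call from Day -2 to Day 0 (0.733). Of the 5 genes most like Clec4g, 3 were shared. Under this scaling the median change of all genes from the perinatal ages to Day 25 to Day 60 was -0.139 in place of -0.542, and the cause was not tested.

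In the replicate block fit, which treats mice of the same number as paired, the count was 5 at Day 15 (29.8% of all genes) and 3 from Day 0 to Day 1 (36.6%), where Kdr and Tek joined Lyve1, and none of the other 48 changes gained or lost its call. The numbers are not known to pair the mice. Over 198 same-number pairs the correlation of deviations was -0.68 to 0.829 with a median of 0.126, against -0.048 between other numbers. It was over 0.1 in 104 of them, and 19 of 36 mice were closest to their own number.

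The alternatives added after seeing the data changed the steps between neighbouring ages. Without the 3 libraries lowest in long transcripts, the counts were 5 at Day 15, 3 at Day 20, 6 from Day 0 to Day 1 and 0 from Day 20 to Day 25 (32%, 19.5%, 37.7% and 6.18% of all genes), and Clec4g was at -0.077 from Day 20 to Day 25. With the length and GC trend removed they were 6, 3, 3 and 4 (34.7%, 22.1%, 38.3% and 10.6% of all genes), Clec4g was at -0.07 from Day 20 to Day 25, Stab2 at -0.026 from Day 0 to Day 1 and Kdr at 0.131 from Day -2 to Day 0. Stab1 gained its call from Day -2 to Day 0 under both (0.491 and 0.466). Changes between the perinatal ages and Day 25 to Day 60 kept their direction and their calls under both.

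With each mouse left out in turn, 645 of 684 counts stayed within 1.5 times, and of 1800 changes 1736 kept direction and call, 33 lost the call, 9 gained it and 22 reversed. Counts ranged from 2 to 6 at Day -2 (2 without Day -2 replicate 1), 4 to 8 at Day 10, 1 to 5 at Day 15 (1 without Day 15 replicate 1; 5 without Day 15 replicate 3, Day 25 replicate 2 or Day 30 replicate 1), and 1 to 2 at Day 20 (2 without Day 1 replicate 3, Day 25 replicate 2 or Day 30 replicate 1). From Day 0 to Day 1 they ranged from 0 (without Day 0 replicate 3) to 3 (without Day 1 replicate 3 or Day 25 replicate 2; 2 without Day 30 replicate 1 or 2). From Day 20 to Day 25 they ranged from 0 (without Day 20 replicate 1 or 3 or Day 25 replicate 2) to 2, and 20 further mice gave 1.

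Ranges of changes whose sign or call turned were as follows. From Day -2 to Day 0 they were -0.78 to -0.014 for Lyve1 (called at -0.78 without Day 0 replicate 1), 0.379 to 0.638 for Stab1 (called without Day -2 replicate 1 or Day 30 replicate 1), -0.071 to 0.293 for Stab2, -0.204 to 0.031 for Oit3, 0.402 to 0.581 for Pecam1, -0.045 to 0.124 for Cdh5, -0.201 to 0.196 for Kdr and 0.503 to 0.728 for Eng (lowest without Day 0 replicate 3). From Day 0 to Day 1 they were 0.805 to 1.572 for Lyve1, -0.116 to 0.248 for Stab2, 0.527 to 0.925 for Kdr, -0.108 to 0.168 for Eng and 0.445 to 0.744 for Tek; Kdr and Tek were called without Day 1 replicate 3 or Day 25 replicate 2. From Day 20 to Day 25 they were -0.94 to -0.629 for Stab2, -0.82 to -0.415 for Oit3 and -0.077 to 0.099 for Clec4g, which against Days 10 to 20 ranged from -0.051 to 0.019.

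With 3 mice per age, single steps between ages rest on few animals, and leaving out a mouse leaves 2. Lyve1 and Tek had age means below 2 FPKM after weaning, where the pseudocount sets much of the fold change.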
